A study of Mus musculus with 13 samples.

Results

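Transcript levels of 40 cell cycle and proliferation genes were examined on 13 Affymetrix mouse arrays, out of 18193 genes with a probe set of their own. The genes were a fixed set of 16 that act in S phase, 23 that act in mitosis and Ddias, a DNA damage-induced suppressor of apoptosis. Each was represented by the probe set with the highest mean over the 13 arrays. A probe set of its own was found for 39 of the 40 and not for Ccnb1, and 38 were tested, because Tyms was above the lowest value used (the floor, 2.01 on the log2 scale) on 1 array. The RNA came from mouse cells sorted on CD31, an endothelial surface protein, from tumors of SKOV3ip1, a human ovarian cancer line grown in mice. The groups were control (n = 5), tumors sensitive to B20, an antibody against VEGF-A (n = 4), and tumors resistant to it (n = 4). The study took the sensitive and resistant tumors at different times of B20 treatment, and its methods give a control IgG to the control mice. The methods list female athymic nude mice, which lack mature T cells, without tying them to these arrays, and the labels state no age. The labels call the arrays of a group biological replicates but tie no array to an animal, so each p-value reflects only how far these samples spread.

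Cells that divide first license replication origins by loading the Mcm2 to Mcm7 helicase with Cdc6 and Cdt1, then copy their DNA in S phase, and then separate the chromosomes in mitosis under Cdk1, its cyclins and the Plk1 and Aurora kinases. Transcripts of the first set are made mainly around the start of S phase, under E2F factors, and those of the second mainly in G2 and mitosis. Endothelial cells of adult vessels seldom divide, whereas vessels that sprout under VEGF contain dividing cells. In sorted tissue, a change in the number of dividing cells and a change in the RNA of each cannot be told apart, and neither can fewer cells of a type and less RNA per cell.

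The labelled cell type was checked against marker lists. Of 10 endothelial markers, all had a probe set, and their summed level (log2 of the summed linear values) was 10.91 and 11.21 on control arrays 4 and 5 and 6.04 to 8.15 on the other 11 arrays. The adhesion molecule Cdh5 measured 7.96 and 8.06 on those control arrays and at most 4.28 elsewhere, and Tie1 was at the floor on 4 arrays. Of 10 macrophage and monocyte markers, 9 were measured, and their summed level was 9.997 to 10.19 on sensitive arrays 1, 2 and 3, with the integrin Itgam at the floor, and 12.88 to 13.98 on the other 10 arrays. Sensitive array 3 had a B cell sum (9 of 10 markers) of 11.90, against 6.64 to 9.07 elsewhere, and also the highest T cell sum (7 of 8 markers, 7.99, against 5.95 to 7.03) and NK cell sum (5 of 6 markers, 8.86, against 4.73 to 7.44). Sensitive arrays 1 and 2 had mesothelial sums (6 of 6 markers) of 10.90 and 11.22, against 5.91 to 10.07. They also had the highest epithelial sums (5 of 5 markers, 10.63 and 9.95, against 5.95 to 8.75) and erythroid sums (4 of 6 markers, 6.82 and 6.30, against 5.03 to 5.90). The difference between 3 prime and 5 prime probe sets of control transcripts, which grows as RNA degrades, was 5.95 on sensitive array 4 and 2.23 to 3.82 elsewhere. Correlations between replicate arrays were 0.906 to 0.985 in the control, 0.664 to 0.919 in the sensitive and 0.896 to 0.955 in the resistant group. The part of these differences in the results below was not tested, except where values without those arrays are given.

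The split into S phase and mitosis genes was visible in their promoters, which were searched in windows of 250 bases before and 50 bases after the first listed start (RefSeq, GRCm38.p6). A window was found for 13 of the 16 S phase and 19 of the 23 mitosis genes. E2F sites were sought on both strands as TTTGGCGC, TTTGCCGC, TTTCGCGC and TTTCCCGC, the cell cycle homology region (CHR) of G2 and mitosis genes as TTTGAA, and the CCAAT box by its letters. An E2F site was found in 6 of the 13 S phase windows (46.2%), 1 of the 19 mitosis windows (5.26%) and 2.92% of all 17492 protein-coding windows. A CHR was found in 14 of the 19 mitosis windows (73.7%), 1 S phase window (7.69%) and 16.5% of all windows, and within the last 30 bases before the start or after it in 13 mitosis windows (68.4%), 0 S phase windows and 3.02% of all. CCAAT was found in 17 mitosis windows (89.5%), 9 S phase windows (69.2%) and 39.0% of all. These matches are letters in a window and describe the lists, not the arrays.

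The 160 bases before the start are shown for 2 genes of each list that carry the motifs of the list, 5′ to 3′ on the strand of the gene, with E2F, CHR and CCAAT letters (or their reverse complements) in capitals. Mcm5 lies at chr8:75109349-75109508 (plus strand), Mcm6 at chr1:128359706-128359865 (minus), Cdc20 at chr4:118437344-118437503 (minus) and Cdk1 at chr10:69352913-69353072 (minus).
Mcm5: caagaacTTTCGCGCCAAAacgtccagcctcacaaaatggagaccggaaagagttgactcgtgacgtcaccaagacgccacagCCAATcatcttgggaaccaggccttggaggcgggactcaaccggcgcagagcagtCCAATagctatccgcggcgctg
Mcm6: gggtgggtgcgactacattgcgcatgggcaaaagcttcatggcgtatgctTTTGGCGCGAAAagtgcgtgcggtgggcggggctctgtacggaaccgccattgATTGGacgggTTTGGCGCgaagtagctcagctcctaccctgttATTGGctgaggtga
Cdc20: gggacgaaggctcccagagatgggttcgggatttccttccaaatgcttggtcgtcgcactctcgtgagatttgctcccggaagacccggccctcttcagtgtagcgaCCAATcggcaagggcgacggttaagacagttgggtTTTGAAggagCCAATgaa
Cdk1: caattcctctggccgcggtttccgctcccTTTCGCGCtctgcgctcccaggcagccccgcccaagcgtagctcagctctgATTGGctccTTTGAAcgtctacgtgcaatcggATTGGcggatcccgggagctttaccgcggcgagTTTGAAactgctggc
In Mcm5 and in the first match of Mcm6, E2F letters on one strand overlap E2F letters on the other by 4 bases. Cdk1 was the 1 mitosis gene with an E2F match, and its window also held a CHR at 71 and at 15 bases before the start.

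Across the 13 arrays, the S phase and mitosis genes deviated from their own means in different ways. The deviation of a list on an array is the median, over its tested members, of the log2 value minus the mean of that gene over the 13 arrays. For the 15 S phase genes it was -0.09, -0.28, -0.40, -0.02 and 0.08 on control arrays 1 to 5, -0.04, 0.27, 1.17 and -0.38 on sensitive arrays 1 to 4, and 0.10, -0.05, 0.00 and -0.15 on resistant arrays 1 to 4. Sensitive array 3 stood above all others, and the other 12 arrays overlapped across groups. For the 22 mitosis genes it was -0.21, -0.49, -0.30, 0.08 and 0.11 on the control, 0.40, 0.33, 0.36 and -0.42 on the sensitive, and 0.25, -0.09, -0.19 and 0.08 on the resistant arrays. Here 3 sensitive arrays stood above all others, sensitive array 4 stood among the lowest, and each group overlapped each other group. As group values, the S phase list was at -0.14 ± 0.20 (SD, n = 5) in control, 0.25 ± 0.67 (SD, n = 4) in sensitive and -0.02 ± 0.10 (SD, n = 4) in resistant tumors, and the mitosis list at -0.16 ± 0.26, 0.17 ± 0.39 and 0.01 ± 0.20. The spread within the sensitive group was larger than any difference between groups in the S phase list.

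**Figure D1:**
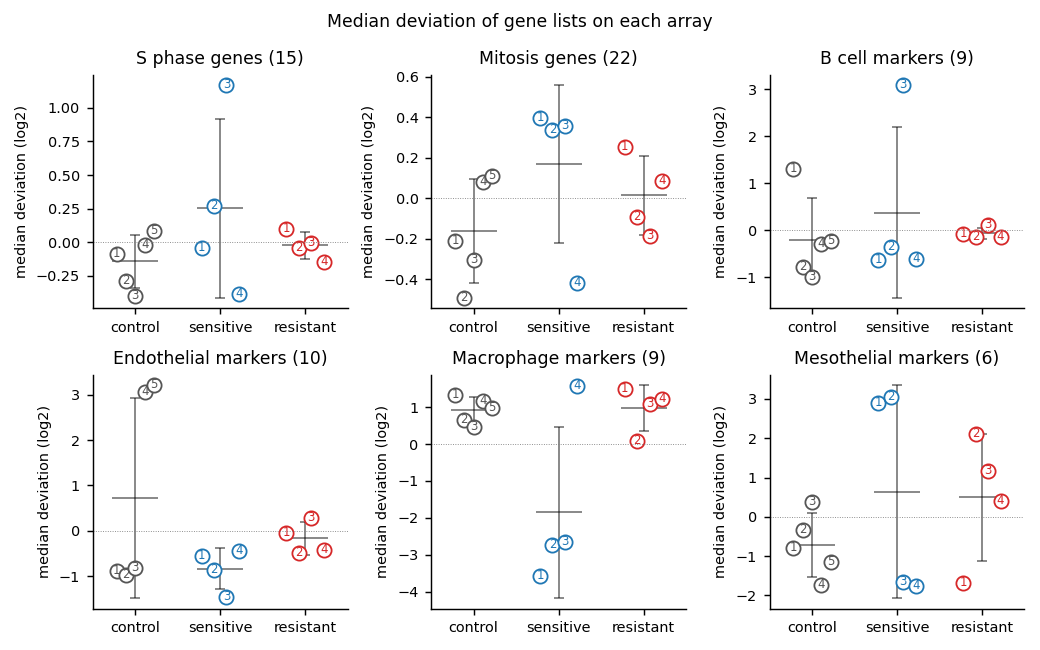
Median deviation (log2 scale) of 6 lists of genes, one circle per array with its replicate number, and bars at the group mean ± SD. Sensitive array 3 stands alone in the S phase list (1.17) and in the B cell list (3.09), whereas sensitive arrays 1, 2 and 3 lie together at 0.33 to 0.40 in the mitosis list.

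**Figure D2:**
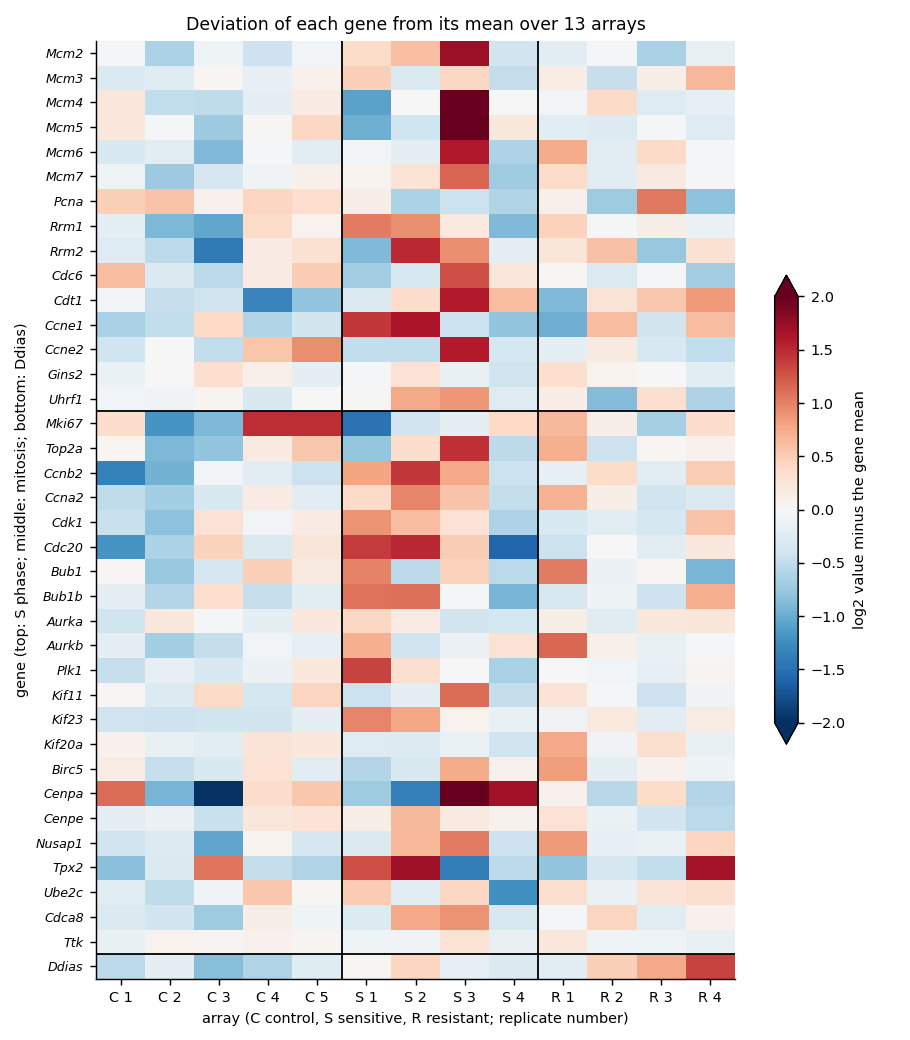
Log2 value minus the gene mean over 13 arrays for the 38 tested members (rows) on each array (columns), with colors capped at -2 and 2. Sensitive array 3 has the highest value of 9 of the 15 S phase genes, including 5 Mcm genes, and sensitive arrays 1 and 2 of 10 of the 22 mitosis genes.

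The comparison of sensitive with control tumors addresses how these cells differ while tumors respond to B20. The median log2 fold change was 0.42 for S phase genes (12 of 15 positive) and 0.43 for mitosis genes (17 of 22 positive), against 0.09 for all 15384 genes tested, of which 58.4% were positive. No member was called in limma at an adjusted p under 0.05, as was 0% of all genes. At an unadjusted p under 0.05, 4 of the 38 members were higher in sensitive tumors (Ccnb2, Kif23, Cdt1 and Mcm2) and 0 lower, against 5.32% of all genes higher and 6.57% lower. By the methods' t-test, 0 members were called and 6 stood at an unadjusted p under 0.05, when 4.20% of all genes were higher and 4.71% lower at that level. Kif23 was the 1 member whose groups did not overlap, against 1.43% of all genes with sensitive above control and 1.59% below. Both list medians depended on the scaling: with each array shifted to a common median, the all-gene median moved from 0.09 to -0.05, the S phase median to 0.010 and the mitosis median to 0.11. They also depended on single arrays, since without sensitive array 3 the S phase median was 0.05 and the mitosis median 0.33, and without sensitive array 4 they were 0.63 and 0.46. Without array 4, 14 of the 38 members had an unadjusted p under 0.05, when 12.1% of all genes were higher and 11.0% lower at that level, and 1 member, Ccnb2, was called, as were 4.52% of all genes tested.

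Resistant tumors were next set against sensitive tumors, a comparison that shares the sensitive arrays with the first and addresses the loss of response. The median log2 fold change was -0.25 for S phase genes (4 of 15 positive) and -0.14 for mitosis genes (6 of 22 positive), against -0.07 for all genes (42.1% positive). No member was called in limma, as was 0% of all genes, and the methods' t-test gave 0 called and 0 at an unadjusted p under 0.05, when 1.89% of all genes were higher and 1.55% lower at that level. In limma, Kif20a was higher and Mcm2 lower at an unadjusted p under 0.05, which was 1 of 38 members in each direction, against 4.54% of all genes higher and 2.53% lower. In 0 members did the groups not overlap, against 0.975% of all genes with resistant above sensitive and 0.897% below. Without sensitive array 3 the S phase median turned to 0.10 and the mitosis median to 0.01, and with a common array median to 0.15 and 0.01 while the all-gene median moved to 0.04.

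In the comparison of resistant with control tumors, the median was 0.15 for S phase genes (9 of 15 positive) and 0.18 for mitosis genes (18 of 22 positive), against 0.03 for all genes (54.3% positive). No member was called in limma, as was 0% of all genes, and by the methods' t-test 0 were called and 2 had an unadjusted p under 0.05, when 3.32% of all genes were higher and 3.46% lower at that level. Ddias was the 1 member at an unadjusted p under 0.05 in limma, higher in resistant tumors, against 0.995% of all genes higher and 1.53% lower. The groups overlapped in all 38 members, against 1.31% of all genes with resistant above control and 1.39% below that did not.

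**Figure D3:**
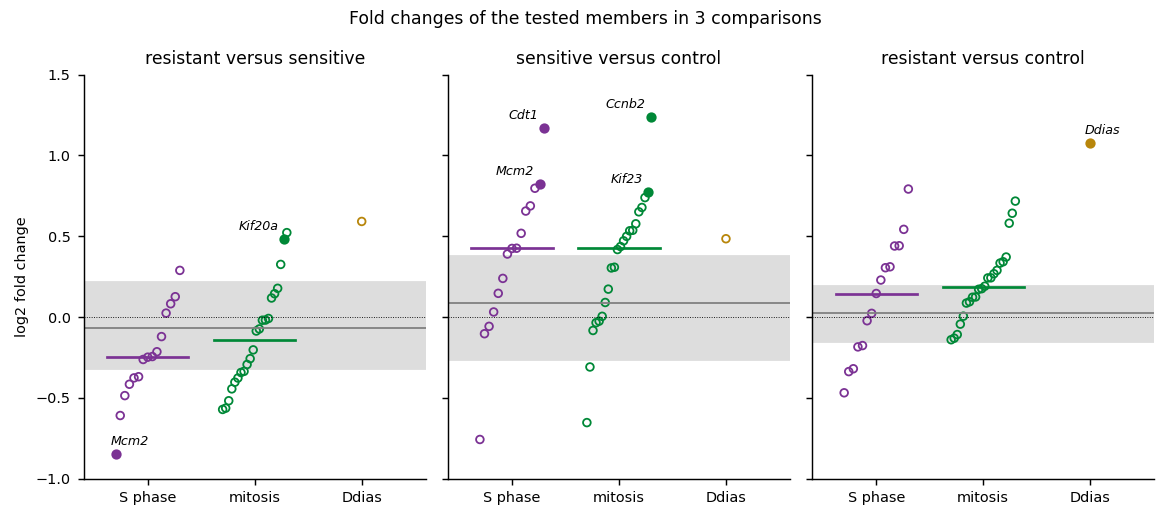
Log2 fold changes of the 38 tested members in the 3 comparisons, as circles, filled and named where the unadjusted p was under 0.05, with colored lines at the list medians. The grey line and band give the median and the middle 50% of all 15384 genes, and most members lie above the grey line between sensitive and control tumors (medians of 0.42 and 0.43) and below it between resistant and sensitive tumors (-0.25 and -0.14).

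Of the 6 subunits of the Mcm helicase, 5 had their highest value on sensitive array 3. Mcm2 measured 6.06, 5.47, 6.01, 5.68 and 6.04 on control arrays 1 to 5, 6.46, 6.71, 7.82 and 5.72 on sensitive arrays 1 to 4, and 5.87, 6.05, 5.44 and 5.95 on resistant arrays 1 to 4. Sensitive arrays 1, 2 and 3 lay above all others, and sensitive array 4 lay within the control range. Mcm2 had a log2 fold change of 0.82 (SE 0.37, 1.77-fold, adjusted p = 0.402) between sensitive and control and of -0.85 (SE 0.39, adjusted p = 0.702) between resistant and sensitive tumors, and of -0.02 between resistant and control tumors. The exact two-sided permutation p of the first was 0.0556, and 0.429 adjusted over 18 such tests of 6 genes. Its second probe set gave 0.07 and 0.13 for these differences, so the mean of both probe sets gave 0.45 and -0.36. Without sensitive array 3 the chosen probe set gave 0.44 and -0.46.

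Mcm5 measured 6.78, 6.55, 5.85, 6.60 and 6.98 on the control, 5.60, 6.17, 8.63 and 6.78 on the sensitive, and 6.36, 6.30, 6.55 and 6.31 on the resistant arrays. Sensitive array 3 exceeded the next array by 1.65 on the log2 scale, and the remaining sensitive arrays overlapped the controls. Its log2 fold changes were 0.24 (SE 0.48) between sensitive and control tumors, -0.42 between resistant and sensitive and -0.18 between resistant and control tumors, and the first was -0.37 without that array. A second Mcm5 probe set above the floor on all arrays gave -0.17, 0.02 and -0.16 in the same order. It was also highest on sensitive array 3. The chosen probe sets of Mcm2, Mcm3, Mcm4, Mcm5, Mcm7, Rrm2, Ccne1, Gins2, Cdc20, Aurkb and Cdca8 carry suffixes that mark probes shared with other transcripts. Mcm4 (8.87), Mcm6 (8.07) and Mcm7 (7.83) also had their highest value on sensitive array 3, by 1.60, 0.86 and 0.80 over the next array, whereas Mcm3 did not. Of 16 Mcm probe sets above the floor on all arrays, chosen or not, 11 had their highest value there. That array also had the highest B cell, T cell and NK cell sums, and 7 of the 9 B cell, 4 of the 7 T cell and 2 of the 5 NK cell markers peaked on it. So did 2 of 6 measured neutrophil markers, Camp and Mpo (Mpo 6.34, against at most 3.34 elsewhere). Its neutrophil sum (8.73) lay within the range of the other arrays (6.64 to 9.35). Without sensitive array 3, Mcm4, Mcm6 and Mcm7 gave -0.19, 0.05 and 0.10 between sensitive and control tumors, against 0.39, 0.52 and 0.43 with it. Mcm6 gave 0.54 (SE 0.41, adjusted p = 0.9999) between resistant and control tumors.

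Cdt1, which loads the helicase with Cdc6, was also highest on that array, by 0.72. It measured 8.10, 7.70, 7.75, 6.83 and 7.37 on the control, 7.86, 8.50, 9.73 and 8.77 on the sensitive, and 7.26, 8.40, 8.68 and 9.01 on the resistant arrays. Of the 4 sensitive arrays, 3 lay above all controls, as did 3 of the 4 resistant arrays. Cdt1 gave a log2 fold change of 1.17 (SE 0.43, 2.25-fold, adjusted p = 0.330) between sensitive and control and 0.79 (SE 0.43, adjusted p = 0.9999) between resistant and control tumors. Leaving out each array in turn gave 0.83 to 1.45 for the first and 0.57 to 1.15 for the second, and a second probe set gave 0.84 and 0.61. Between resistant and sensitive tumors Cdt1 gave -0.38, which turned to 0.11 on the values as deposited and to 0.19 with a common array median. Its partner Cdc6 was dim, from the floor to 4.0, again highest on sensitive array 3, with log2 fold changes of 0.03, -0.37 and -0.34 in the comparisons of sensitive with control, resistant with sensitive and resistant with control.

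The genes of DNA synthesis did not share 1 pattern. Pcna, the sliding clamp of the polymerases, measured 9.0, 9.08, 8.60, 8.95 and 8.85 on the control, 8.65, 7.88, 8.10 and 7.92 on the sensitive, and 8.62, 7.82, 9.58 and 7.70 on the resistant arrays. It was thus opposite in sign to most S phase members, at -0.76 (SE 0.36, adjusted p = 0.424) between sensitive and control tumors, with 1 sensitive array inside the control range, at -0.47 between resistant and control and at 0.29 between resistant and sensitive tumors. The ribonucleotide reductase subunits Rrm1 and Rrm2, which make deoxynucleotides, had log2 fold changes of 0.66 (SE 0.41) and 0.69 (SE 0.50) between sensitive and control tumors, and Rrm2 gave -0.25 between resistant and sensitive and 0.44 between resistant and control tumors. Other probe sets above the floor on all arrays gave 0.18 for Rrm1 and 0.10 and 0.27 for Rrm2 between sensitive and control tumors. Those of Rrm2 gave 0.31 and -0.26 between resistant and sensitive and 0.41 and 0.01 between resistant and control tumors. On the chosen probe sets, Rrm1 was highest on sensitive arrays 1 and 2 (7.26 and 7.17), and Rrm2 on sensitive arrays 2 and 3 (7.57 and 7.0). Uhrf1, which guides maintenance methylation of new DNA, gave 0.42 (SE 0.33) between sensitive and control and -0.61 (SE 0.35, adjusted p = 0.758) between resistant and sensitive tumors. A dimmer Uhrf1 probe set, above the floor on 12 arrays, gave 0.11 and 0.26 for these differences. The helicase cofactor Gins2 had the smallest range over the arrays among tested S phase genes (0.73), and Tyms, which makes thymidylate, reached 2.26 on sensitive array 3 and the floor elsewhere.

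The E-type cyclins, which drive entry into S phase with Cdk2, went apart. Ccne1 measured 4.53, 4.69, 5.59, 4.58 and 4.82 on the control, 6.59, 6.81, 4.76 and 4.40 on the sensitive, and 4.20, 5.80, 4.82 and 5.79 on the resistant arrays. The 5 arrays with high Ccne1 (control 3, sensitive 1 and 2, resistant 2 and 4) were also those with the lowest trimmed mean of all values (19.4 to 27.5, against 31.1 to 33.5), and they did not overlap with the other 8. Of all genes tested, 9.02% were likewise above all the other arrays on these 5, and 1.80% below. The mesothelial sums of these 5 arrays were 8.35 to 11.22, against 5.91 to 7.65 elsewhere apart from resistant array 3 (9.29). Their fibroblast and pericyte sums (7 of 7 markers) were 11.24 to 12.94, against 7.30 to 11.06 elsewhere, again apart from resistant array 3 (11.70). The part of trimmed mean and of cell content in these values was not tested. The log2 fold change of Ccne1 between sensitive and control tumors was 0.80 (SE 0.53), and -0.08 with the 5 arrays left out, an alternative chosen after seeing the data. Ccne1 gave -0.49 between resistant and sensitive and 0.31 between resistant and control tumors. Ccne2 instead was dim, at the floor on 4 arrays, and reached 4.10 on sensitive array 3, with a fold change of -0.06 between sensitive and control tumors.

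**Figure D4:**
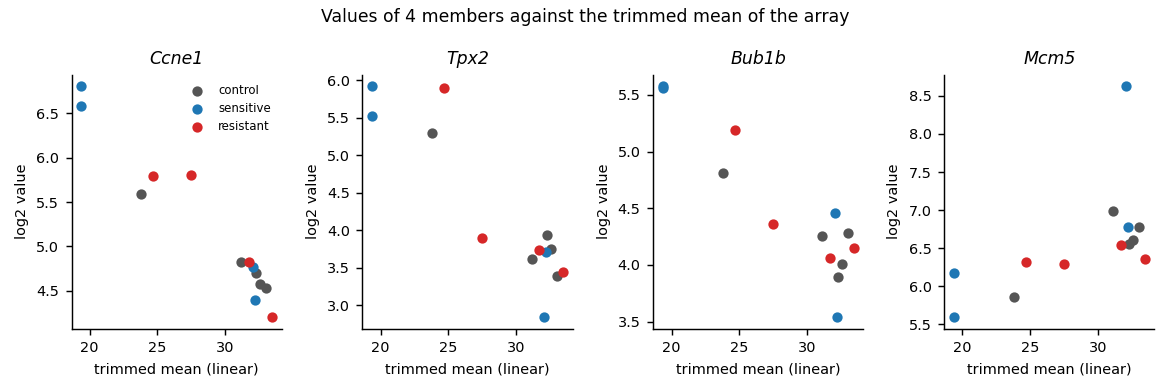
Log2 value of 4 members against the 2%-trimmed linear mean of each array, with colors for the groups. Ccne1 separates the 5 arrays of low trimmed mean (5.59 to 6.81) from the other 8 (4.20 to 4.82), Tpx2 and Bub1b are mostly higher on those 5, and Mcm5 is lower on them (5.60 to 6.31).

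Of the mitotic kinases and their cyclins, Ccnb2, a B-type cyclin, had the smallest p between sensitive and control tumors. It measured 3.41, 3.83, 4.72, 4.54 and 4.34 on the control, 5.56, 6.18, 5.52 and 4.34 on the sensitive, and 4.60, 5.13, 4.55 and 5.25 on the resistant arrays. Sensitive arrays 1, 2 and 3 lay above all controls and all resistant arrays, and sensitive array 4 lay at the control median. In limma, Ccnb2 gave 1.23 (SE 0.39, 2.35-fold, adjusted p = 0.290), with an exact two-sided permutation p of 0.0397, and 0.429 adjusted over 18 tests. Without sensitive array 4, which had the largest 3 prime to 5 prime difference, it was 1.59 and passed over all genes in limma (adjusted p = 0.0258), when 4.52% of all genes did. It was 1.03 on the values as deposited, 0.92 with a common array median and 0.90 without the 5 arrays of low trimmed mean. Between resistant and control tumors Ccnb2 gave 0.72 (SE 0.39, adjusted p = 0.9999), and between resistant and sensitive tumors -0.52. Ccnb2 has 1 probe set, so no second one bears on it.

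Cdk1, the kinase that Ccnb2 activates, measured 4.69, 4.31, 5.43, 5.08 and 5.30 on the control, 6.03, 5.76, 5.43 and 4.53 on the sensitive, and 4.83, 4.91, 4.78 and 5.71 on the resistant arrays. The groups overlapped, and the log2 fold changes were 0.47 (SE 0.37), -0.38 and 0.09 in the comparisons of sensitive with control, resistant with sensitive and resistant with control. Ccna2, the cyclin of S phase and early mitosis, gave 0.68 (SE 0.35, adjusted p = 0.448) between sensitive and control tumors, and 0.96 on its second probe set. Plk1, which drives entry into mitosis, stood out on sensitive array 1 alone (5.73, against 3.72 to 4.70 elsewhere), with a fold change of 0.42 (SE 0.35). Aurka, the centrosomal Aurora kinase, gave 0.00, 0.12 and 0.12 in the same order, and Aurkb, the kinase of the chromosomal passenger complex, 0.44, 0.14 and 0.58. Of its partners in that complex, Cdca8 gave 0.54, -0.20 and 0.33 and Birc5 0.09, 0.18 and 0.27. A second Cdca8 probe set above the floor on all arrays gave -0.14, 0.11 and -0.03, of opposite sign in each comparison.

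The spindle motors and their regulators held the 1 member with groups apart. Kif23, a kinesin of the central spindle, measured 4.37, 4.35, 4.37, 4.39 and 4.58 on the control, 5.74, 5.54, 4.84 and 4.62 on the sensitive, and 4.69, 4.96, 4.56 and 4.91 on the resistant arrays. All sensitive arrays lay above all controls, although sensitive array 4 and control array 5 were nearly level, and 3 of the 4 resistant arrays lay above the controls. Its difference between sensitive and control tumors was 0.77 on the log2 scale (SE 0.28, 1.71-fold, adjusted p = 0.332), and 0.31 without the 5 arrays of low trimmed mean. Between resistant and sensitive tumors it was -0.40 (SE 0.30, adjusted p = 0.797). Its other 2 probe sets had means under the floor. Kif20a, a kinesin of cytokinesis, was dim, at 2.51, 2.27, 2.20, 2.67 and 2.63 on the control, 2.16, 2.14, 2.28 and 2.01 on the sensitive, and 3.17, 2.34, 2.74 and 2.26 on the resistant arrays. Resistant and sensitive arrays overlapped by 1 resistant array, and the fold change was 0.48 (SE 0.18, 1.40-fold, adjusted p = 0.614), which the floor can understate. Kif11, Cenpe and Nusap1, which act on spindle microtubules and kinetochores, gave -0.03, 0.30 and 0.65 between sensitive and control tumors, and Cenpe gave -0.44 (SE 0.24, adjusted p = 0.740) between resistant and sensitive tumors. Nusap1 gave 0.64 (SE 0.37, adjusted p = 0.9999) between resistant and control tumors.

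Tpx2, which activates Aurka on the spindle, had its 4 highest values on arrays of low trimmed mean (5.30, 5.52, 5.92 and 5.89) and measured 2.84 to 3.94 on the others. Its fold change between sensitive and control tumors was 0.50 (SE 0.67), -0.40 without the 5 arrays, and 0.73 and -0.21 on the 2 other probe sets above the floor on all arrays. Bub1b, a spindle checkpoint protein, measured 5.56 and 5.58 on sensitive arrays 1 and 2 and at most 5.19 elsewhere, with 0.53 (SE 0.43) and -0.11 without the 5 arrays. A second Bub1b probe set above the floor on all arrays gave -0.02 and was highest on sensitive array 3. Bub1, the partner of Bub1b, gave 0.17, and the checkpoint kinase Ttk, near the floor throughout, -0.03. Cdc20, which targets mitotic proteins for destruction, measured 5.26, 5.79, 6.89, 6.13 and 6.67 on the control, 7.83, 7.94, 6.93 and 4.85 on the sensitive, and 6.01, 6.43, 6.22 and 6.65 on the resistant arrays. Sensitive arrays 1 and 2 were the highest and sensitive array 4 the lowest of all, and the fold change was 0.74 (SE 0.55), with 0.83 and 0.72 on the other probe sets and -0.07 without the 5 arrays. Ube2c, the ubiquitin enzyme that acts with Cdc20, gave -0.08.

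Mki67, the common marker of dividing cells, went against most mitosis genes. It measured 7.34, 5.81, 6.09, 8.46 and 8.46 on the control, 5.52, 6.61, 6.80 and 7.40 on the sensitive, and 7.63, 7.11, 6.32 and 7.34 on the resistant arrays. Control arrays 4 and 5 were the highest of all, and these were also the arrays with high endothelial markers. Mki67 gave a log2 fold change of -0.65 (SE 0.58) between sensitive and control tumors, or 0.17 without those control arrays. Between resistant and sensitive tumors it gave 0.52, and between resistant and control tumors -0.13, or 0.69 without those control arrays. The exact two-sided permutation p was 0.389 for the first and 0.371 for the second, before adjustment. Top2a, which untangles DNA, gave 0.31, -0.02 and 0.29 in the comparisons of sensitive with control, resistant with sensitive and resistant with control and was highest on sensitive array 3 (7.21). Cenpa, the histone of the centromere, had the widest range of all members (3.96), with 3.82 on control array 3 and 7.78 on sensitive array 3.

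**Figure D5:**
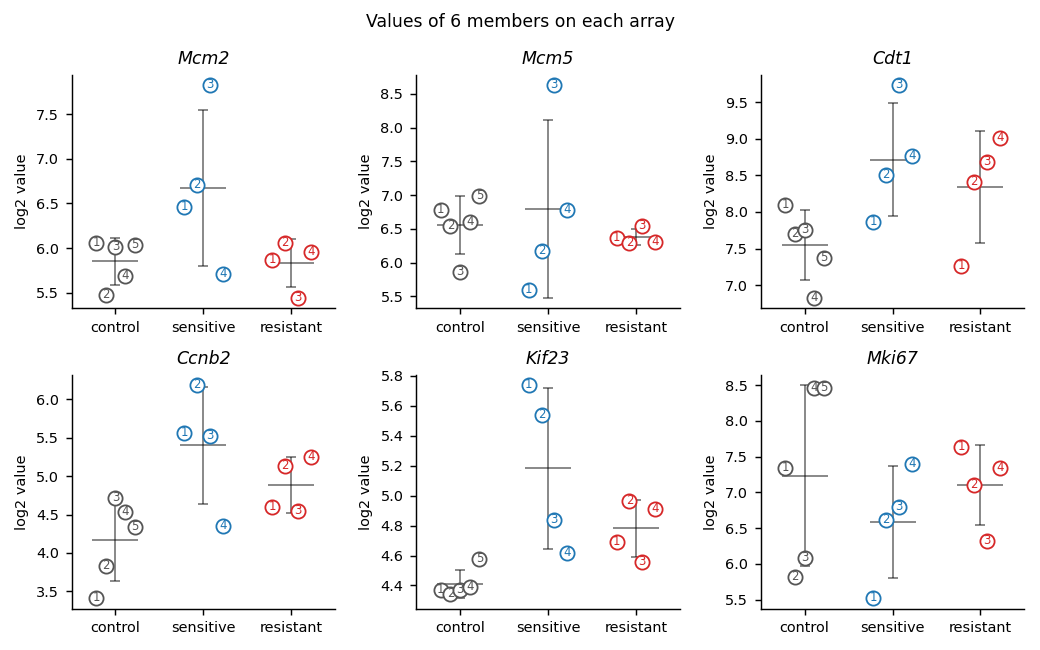
Log2 values of 6 members, one circle per array with its replicate number, and bars at the group mean ± SD. Mcm2 and Mcm5 are highest on sensitive array 3 (7.82 and 8.63), Ccnb2 and Kif23 are higher on sensitive than on most control arrays, and Mki67 is highest on control arrays 4 and 5 (8.46 on each).

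Ddias was dim, at 2.36, 2.71, 2.04, 2.28 and 2.64 on the control, 2.93, 3.32, 2.72 and 2.59 on the sensitive, and 2.68, 3.36, 3.65 and 4.24 on the resistant arrays. Of the 4 resistant arrays, 3 lay above all controls and 1 inside their range. Ddias gave a log2 fold change of 1.08 (SE 0.27, 2.11-fold, adjusted p = 0.9999) between resistant and control tumors, 0.59 (SE 0.29, adjusted p = 0.711) between resistant and sensitive and 0.48 between sensitive and control tumors. Leaving out each array in turn gave 0.82 to 1.34 for the first, 0.67 was left without the 5 arrays of low trimmed mean, and its second probe set lay under the floor on all arrays.

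Several probe sets of 1 gene did not always follow each other. Beside the chosen ones, 15 probe sets of 10 S phase genes and 10 of 8 mitosis genes lay above the floor on all arrays. Between sensitive and control tumors, 11 of the 15 and 7 of the 10 had the sign of the chosen probe set. Between resistant and sensitive tumors these were 8 and 7, and between resistant and control tumors 12 and 4. Mcm7 ranged from -0.07 to 0.92 over 4 probe sets between sensitive and control tumors, whereas the 3 of Cdc20 lay between 0.72 and 0.83.

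Genes that act together were compared as 7 pairs over the 13 arrays, and none passed after adjustment over the pairs. Cdk1 and Ccna2 gave r = 0.55 (permutation p = 0.0537) and rho = 0.66 (permutation p = 0.0165, 0.0967 adjusted), with r = 0.41 without the 2 arrays farthest from the Cdk1 median and 0.44 on deviations from the group means. Aurka and Tpx2 gave r = 0.57 (permutation p = 0.0445, 0.185 adjusted) and rho = 0.62 (permutation p = 0.0276, 0.0967 adjusted), with r = 0.41 without the 2 farthest arrays. Mcm2 and Mcm5 gave r = 0.55 (permutation p = 0.0804) and rho = -0.08 (permutation p = 0.789), and r = -0.52 without sensitive arrays 3 and 2, so their r rested on those arrays. Bub1 and Bub1b gave r = 0.01 (permutation p = 0.972) and rho = -0.01 (permutation p = 0.978). The other 3 pairs, Aurkb with Birc5, Rrm1 with Rrm2 and Cdc6 with Cdt1, gave r from 0.23 to 0.47.

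Further genes of the same processes were read from 4 lists that hold none of the 40. Of 47 further mitosis genes tested, 39 were positive between sensitive and control tumors (median 0.35), with 8 higher and 0 lower at an unadjusted p under 0.05 and 0 called. Their smallest p was that of the nuclear lamin Lmnb1, at 0.88 (SE 0.28, adjusted p = 0.290). Of 38 further replication genes, 28 were positive (median 0.38), with 3 higher, 1 lower and 0 called, and the flap nuclease Fen1 gave 1.01 (SE 0.36, adjusted p = 0.327). The deviation of this replication list was 0.81 on sensitive array 3 but -0.24, -0.15 and -0.10 on sensitive arrays 1, 2 and 4. On the control arrays it was -0.22 to -0.03. Over all genes tested, 58.4% were positive, 5.32% higher and 6.57% lower in this comparison, with a median of 0.09. The 23 G1 cyclins and E2F factors had a median of 0.02, with 1 higher and 1 lower, and Ccnd1, the cyclin induced by growth factors, gave -2.46 (SE 0.57, adjusted p = 0.189) between sensitive and control and 1.73 (SE 0.60, adjusted p = 0.572) between resistant and sensitive tumors. The 12 inhibitors of cyclin-dependent kinases and related genes had a median of -0.20, with 1 higher and 1 lower, and the inhibitor Cdkn1a gave -1.52 (SE 0.52, adjusted p = 0.308). Between resistant and sensitive tumors the medians of the 4 lists were -0.12, -0.10, -0.06 and 0.14, and between resistant and control tumors 0.18, 0.11, -0.03 and 0.03, with 0 genes called in either, beside -0.07 and 0.03 for all genes.

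When the sensitive arrays 3 and 4 were both left out, members were called in limma. Bub1b, Ccna2, Ccnb2, Ccne1, Cdc20, Kif23, Plk1 and Rrm1 were then higher in sensitive than in control tumors, as 8 of the 38 members, and Bub1b, Ccne1, Cdc20 and Kif23 were lower in resistant than in sensitive tumors. In that setting 34.8% and 25.8% of all genes were called in these comparisons. The sensitive group then held only arrays 1 and 2, which had the lowest trimmed means (19.4 on each). They also had the highest mesothelial, epithelial and erythroid sums, the last without a rise of Hba-a1.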

How the data were processed

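Expression was measured on 13 arrays (control n = 5, sensitive n = 4, resistant n = 4). Per the labels, MAS5 was used, with no version given, whereas the published methods name Illumina bead chips and BRB-ArrayTools. The log2 intensities deposited by the authors were taken as such from their range. Neither the log base nor the normalization was given in the sources used here, and fold changes assume a base of 2.

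Because 2%-trimmed linear means differed by 1.73 (limit 1.5), arrays were quantile normalized. Values under the 30th percentile (2.01) were set to it, which understates changes of dim genes. Of 45101 probe sets, 34958 had 1 gene symbol, 932 several and 9211 none. The probe set of highest mean stood for each of 18193 genes, and the 15384 above the floor on at least 4 arrays were tested. Groups were compared with limma 3.58.1 (R 4.3.3), by lmFit on the 3 groups together (10 residual degrees of freedom) and eBayes with a trend, two-sided, with Benjamini-Hochberg adjustment over all genes and calls at 0.05. The script was tested on simulated data. Exact permutation tests covered 6 genes in 3 comparisons, and pair correlations used 100000 permutations (scipy 1.17.1). The number of arrays limits the precision, and no level was set against that of another probe set.

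Named genes are Mki67, Top2a, Cdk1, Ccnb2, Aurkb, Birc5, Mcm2, Mcm5, Pcna, Rrm2, Ccne1 and Ddias, the 3 members of smallest p of the S phase and mitosis lists in each comparison, any member called, and the gene of smallest p of each further list, and other members were named by role after their values were seen. The members, lists, tests and named genes were chosen with earlier results of these data known. Alternatives covered scaling, floor, filter, probe set rule, variance model, samples, the methods' t-test, a replicate block and leaving out arrays. Same-numbered arrays of different groups correlated at -0.43 to 0.53 in their deviations, and differently numbered ones at -0.59 to 0.53. The labels state no pairing, and these overlapping ranges cannot decide it.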

Additional observations from a re-analysis of the deposited data

Results flagged for a closer look

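A value is listed here where, in a group of 4 or 5 arrays, 1 array lay far from its nearest neighbor relative to the range of the group. This held in 10 of 120 groups of values examined, and chance gives it in about 1 in 20. In the control group these were Ccne1 at 5.59 and Tpx2 at 5.30 on control array 3, both above the other controls, Kif23 at 4.58 on control array 5, above the others, and Ttk at 2.01 on control array 1, which is the floor. In the sensitive group they were Ccne2 at 4.10 and Ttk at 2.45 on array 3, Cenpe at 3.70 on array 2, all above the others, and the deviation of the mitosis list on array 4, at -0.42, below the others. In the resistant group they were Cdk1 at 5.71 on array 4, above the others, and Ube2c at 3.15 on array 2, below them. Control array 3, sensitive array 2 and resistant arrays 2 and 4 were among the 5 of lowest trimmed mean, and the difference between 3 prime and 5 prime probe sets of control transcripts was largest on sensitive array 4. Sensitive array 4 also had the highest macrophage sum (13.98, against 9.997 to 10.19 on sensitive arrays 1, 2 and 3). The part of these differences was not tested.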

How the results depend on the processing

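No member was called in any comparison with another floor, filter, probe set rule, variance model, scaling or fit of 2 groups only, by the plain t-test, under the replicate block, or with control arrays 4 and 5 or the 5 arrays of low trimmed mean left out. With sensitive arrays 3 and 4 left out, 8 were called between sensitive and control and 4 between resistant and sensitive tumors (34.8% and 25.8% of all genes). Leaving out each array in turn gave 0 to 1 called between sensitive and control tumors and 0 in the others.

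Members at an unadjusted p under 0.05 between resistant and sensitive tumors numbered 2. They numbered 1 on the values as deposited, with the mean of all probe sets, with 2 groups only, with the replicate block and without control arrays 4 and 5. They numbered 0 by the plain t-test, 3 without the 5 arrays of low trimmed mean (6.22% of all genes higher, 6.55% lower) and 10 without sensitive arrays 3 and 4 (15.1% and 24.6%). Between sensitive and control tumors the 4 became 2 with a common array median, 6 by the plain t-test, and 11 without sensitive arrays 3 and 4 (28.5% of all genes higher, 17.8% lower). Between resistant and control tumors the 1 became 2 by the plain t-test, with 2 groups only and without the 5 arrays, and 3 without sensitive arrays 3 and 4 (2.53% and 3.26%). Single arrays left out gave 1 to 4, 2 to 14 and 1 to 2.

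The S phase median with a common array median was 0.15 between resistant and sensitive and 0.010 between sensitive and control tumors, and the mitosis median of the latter 0.11, or 0.10 without the 5 arrays. Single arrays left out gave S phase medians of -0.45 to 0.10, 0.05 to 0.63 and 0.02 to 0.23 and mitosis medians of -0.27 to 0.01, 0.27 to 0.48 and 0.12 to 0.22 (resistant with sensitive, sensitive with control, resistant with control). Probe sets with no suffix, added after seeing the data, left only Mcm6, Pcna, Rrm1, Ccne2 and Uhrf1 of the tested S phase genes. Their medians in the same order were -0.21, 0.42 and -0.18. The labels state no pairing by replicate number, and the replicate block left S phase medians of -0.25, 0.47 and 0.23. In 29, 22 and 19 of the 38 members the sign turned in at least 1 alternative. In the setting reported no member was called, whether its sign turned or not. The causes were not tested. Members near the floor, such as Ttk, Kif20a and Ddias, have little signal over background.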
